A study of Sus scrofa with 23 samples.

Results

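In porcine embryos fertilized in vivo, 80 of the 8603 genes of the deposited expression table were nearly silent up to the 4-cell stage, were present at the 8-cell stage, and were still detected in trophectoderm, the outer epithelium of the blastocyst. They were chosen by level in the in vivo Duroc libraries alone. FPKM, fragment numbers scaled by gene length and by library depth, had to be under 1 in the oocyte and in the 1-cell, 2-cell and 4-cell embryos, at least 10 in the 8-cell embryos, and at least 1 in trophectoderm. Of 83 genes within these limits, 3 were left out by name under the rule, which leaves 62 genes with a symbol and 18 without. The choice therefore fixes their onset and their presence in trophectoderm in the in vivo embryos, and these are no findings. What it did not use are the in vivo morula, the in vivo blastocyst part with the inner cell mass, and every library of cloned embryos.

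The limits were close to some genes. Just inside the 8-cell limit stood THUMPD2 at FPKM 10.1, TIGAR at 10.1 and ENSSSCG00000037155 at 10.2, and just outside it PPP5C at 9.64, ALAS1 at 9.60 and RBAK at 9.59. Just inside the trophectoderm limit stood ENSSSCG00000001782 at 1.05, ENSSSCG00000031205 at 1.15 and FAM151A at 1.17, and just outside it ENSSSCG00000012193 at 0.958, ZNF385D at 0.760 and ENSSSCG00000022773 at 0.609. Just inside the limit on early stages were SUOX at 0.996, ZDHHC9 at 0.994 and WWC2 at 0.990.

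The data analysed here are of 3 groups, with 1 library for each condition and 23 libraries in all. Replicates that the study added later for some stages were not used here. IV-D oocytes (OC), at MII, were collected from Duroc sows in heat. IV-D embryos came from Duroc sows inseminated with semen of 1 Duroc boar and were flushed as 1-cell, 2-cell, 4-cell and 8-cell embryos (1C, 2C, 4C, 8C), as morulae (MO) and as blastocysts, which were cut into trophectoderm alone (TE) and the remainder with the inner cell mass and its overlying trophectoderm (IT). NT-D embryos were clones made by nuclear transfer from ear fibroblasts of that same boar, and NT-LW embryos were clones from ear fibroblasts of 1 Laiwu boar, a Chinese breed. Both kinds of clone were made in enucleated oocytes matured in vitro and were cultured in vitro, so nuclear transfer, oocyte source and culture cannot be told apart in any comparison with IV-D. The recipient oocytes, labelled NT-D-OC, are taken as stage OC for NT-D and NT-LW alike. Their label gives the Duroc strain, while the study's text gives hybrid sows, so maternal breed may also separate both clone groups from IV-D. Each library was a pool of oocytes or embryos, the clones of a group were copies of 1 male donor, and the in vivo pools could hold embryos of both sexes. With no replicate library there is no spread between replicates, no test between conditions and no error on any fold, and the comparisons of both clone groups share the IV-D libraries.

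Transcription from the embryonic genome starts in earnest around the 4-cell and 8-cell stages in the pig, when stored oocyte RNA is cleared. The genes that come on then include housekeeping enzymes and also components that the first epithelium needs. Trophectoderm joins its cells by tight junctions and by gap junctions, whose channels are built of connexins, and pumps ions and water into the blastocyst cavity. The vacuolar proton pump (V-ATPase) acidifies endosomes and lysosomes and, in some epithelia, the space outside the cell. It has a sector in the cytosol that splits ATP and a sector in the membrane that carries protons.

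Promoter sequence is shown for 3 members: ATP6V0D2, the highest at the 8-cell stage and among those with the largest deficit in clones; GJB5, a connexin gene; and TRAPPC2L, which stood higher in clones. Sequences are from the RefSeq annotation of Sscrofa11.1 and run 5′ to 3′ on the strand of the gene from 250 bases before to 50 bases after its annotated start. Capitals mark matches on either strand to the motifs named after them.
ATP6V0D2 (chr4:50749324-50749623, minus strand): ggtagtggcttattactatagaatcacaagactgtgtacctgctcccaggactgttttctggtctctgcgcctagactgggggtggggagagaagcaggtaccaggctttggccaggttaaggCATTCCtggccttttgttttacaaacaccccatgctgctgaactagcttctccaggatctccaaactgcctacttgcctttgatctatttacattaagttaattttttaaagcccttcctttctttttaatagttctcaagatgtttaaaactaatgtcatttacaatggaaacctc
GJB5 (chr6:90999264-90999563, plus strand): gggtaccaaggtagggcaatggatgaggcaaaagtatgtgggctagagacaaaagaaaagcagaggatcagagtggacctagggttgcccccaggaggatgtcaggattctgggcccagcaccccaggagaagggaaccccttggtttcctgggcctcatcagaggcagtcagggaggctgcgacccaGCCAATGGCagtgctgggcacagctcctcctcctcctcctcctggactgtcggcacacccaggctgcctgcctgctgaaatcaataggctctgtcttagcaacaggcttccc
TRAPPC2L (chr6:869204-869503, minus strand): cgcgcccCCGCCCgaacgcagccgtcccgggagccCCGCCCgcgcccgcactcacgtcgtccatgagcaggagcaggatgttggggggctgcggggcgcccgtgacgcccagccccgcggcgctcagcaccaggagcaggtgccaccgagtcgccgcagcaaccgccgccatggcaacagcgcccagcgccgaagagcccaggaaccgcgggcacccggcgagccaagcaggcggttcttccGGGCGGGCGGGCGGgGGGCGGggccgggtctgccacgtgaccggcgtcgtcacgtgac

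The ATP6V0D2 window held 1 match, to GGAATG, the core of the motif bound by TEAD factors, and its GC content was 42.7%. The GJB5 window held a CCAAT match inside a match to GCCNNNGGC, an AP-2 pattern. All 6 matches in the TRAPPC2L window were to GGGCGG, the GC box, and its GC content was 77.3%. No motif was shared by all 3 windows.

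Across the 58 members with such a window, 50% held GGGCGG, against 63.0% of the 6819 windows of the table. GGAATG was in 15.5% of member windows and 10.9% of all, AGGTCA (a nuclear receptor site) in 15.5% and 12.3%, TGANTCA (AP-1) in 8.62% and 4.52%, and GCCNNNGGC in 29.3% and 28.4%. CCAAT was in 34.5% and 37.7%. The TATA box motif TATAAA was in 6.90% of member windows and 8.37% of all, and the GATA motif AGATAA was in 5.17% and 7.77%. TAATCC, of OTX and OBOX type, was in 5.17% and 5.29%. TCAAGGTCA (NR5A2), which contains AGGTCA, was in 0 member windows and 0.279% of all. These are matches of letters in short windows and say nothing of binding. Median GC content was 58.0% in member windows and 61.3% in all windows.

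Depth, recovered from the steps between FPKM values, was 14952784 to 22991067 fragments per library. A value at 0 is compared at the level that 3 fragments would give, and such limits cover counting error only. The labels of the blastocyst parts were checked against marker genes of the table. NANOG, a defining gene of the inner cell mass, was listed at 0 in all 3 TE libraries and at FPKM 9.80, 5.00 and 3.76 in IT of IV-D, NT-D and NT-LW. The other inner cell mass markers did not all follow it. Of 5 such markers tested in each group, 3 were lower and 1 higher in TE than in IT of IV-D, and 1 was lower and 0 higher in each clone group. The higher one was DPPA5, also abundant in oocytes, at 168 in IV-D-TE and 49.6 in IV-D-IT, and GDF3 stood at 13.97 in TE and 9.68 in IT of NT-D and at 9.08 and 6.73 in NT-LW. The keratin gene KRT8, a defining gene of trophectoderm, was high in both parts, at 549 in TE and 626 in IT of IV-D. Both parts thus held trophectoderm markers, and none of the 80 genes is among the 18 trophectoderm markers looked for, of which 9 are in the table.

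After the 8-cell stage the members parted in the in vivo embryos. Their median FPKM was 0.0916 in IV-D-OC, 0.426 in IV-D-4C and 17.1 in IV-D-8C, and it stood at 21.3 in the morula, 16.6 in IT and 11.7 in TE. From 8-cell embryo to morula, 20 members were higher by more than 1 on the log2(FPKM + 1) scale, the measure of difference used throughout together with FPKM of at least 1 in one of the libraries. This compares with 12.3% of the genes tested in the table. Another 11 were lower, against 13.6% of the table. The highest of the 4 late values lay in 8C for 27 members, in MO for 20, in IT for 20 and in TE for 13. The limits set in 8C and TE bear on these last counts, and no share of the table is given for them.

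**Figure D1:**
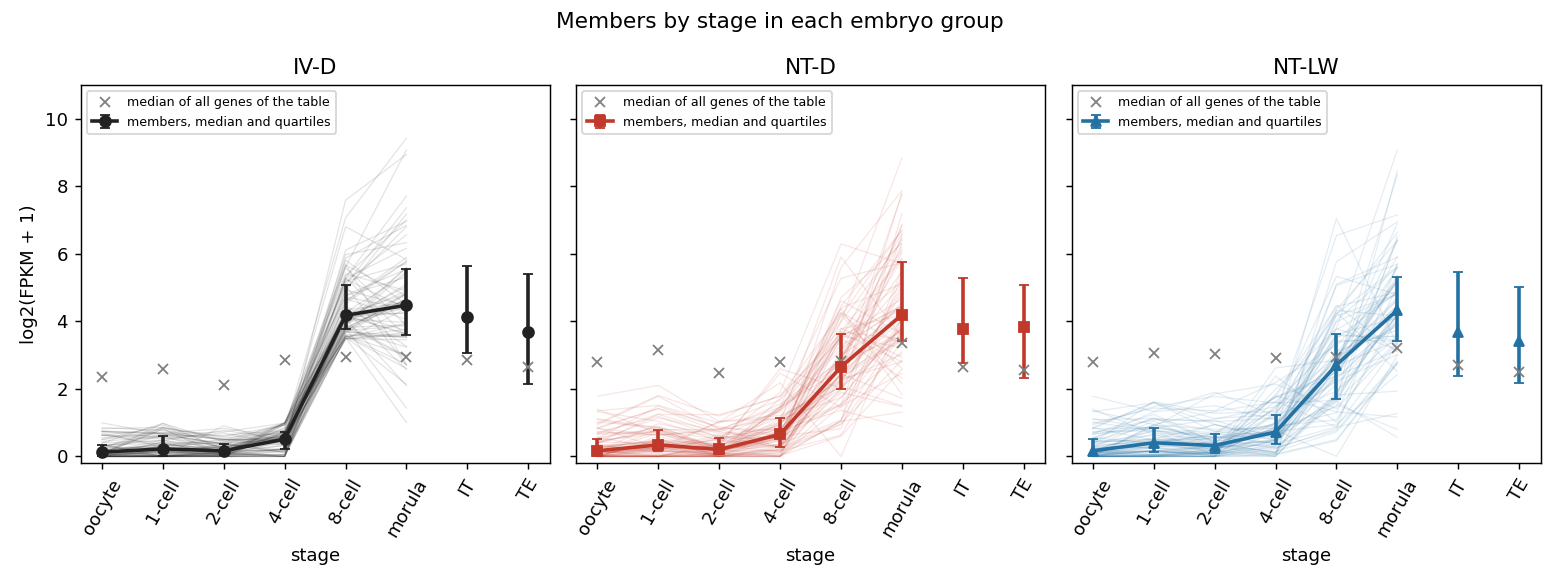
Expression of the 80 members, as log2(FPKM + 1) on the vertical axis, against stage in IV-D, NT-D and NT-LW embryos. Thin lines are members from oocyte to morula, thick lines are medians with bars from the lower to the upper quartile, and grey crosses are medians of all 8603 genes. The NT-LW panel uses the NT-D-OC oocyte. Median FPKM at the 8-cell stage is 17.1 in IV-D, 5.30 in NT-D and 5.54 in NT-LW, and the morula medians are 21.3, 17.3 and 19.2.

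Most members were higher in the 8-cell than in the 4-cell embryos of clones as well, but reached a lower level. From 4-cell to 8-cell embryo, 64 of 75 members tested were higher in NT-D and 59 of 72 in NT-LW, with 31.4% and 28.1% of the table higher. Lower were 2 and 1 members, with 28.7% and 25.6% of the table. At the 8-cell stage the median member stood at 27.7% of its IV-D level in NT-D and 28.1% in NT-LW. Of the 80 members 57 were lower in NT-D-8C than in IV-D-8C and 0 were higher, and 54 were lower and 2 higher in NT-LW-8C. Over all genes tested, 17.4% were lower and 10.8% higher in NT-D-8C, and 17.3% were lower and 16.3% higher in NT-LW-8C. Since the members were picked for a high value in IV-D-8C, these counts describe them and test nothing.

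The median log2 difference of the members was -1.63 in each clone group, beside -0.12 and -0.02 over all genes, and setting the 2 values at 0 to the level of 3 fragments left both medians at -1.63. Rescaling moved the median of all genes to -0.35 and -0.25 with each library set to 1 total over the table, and to 0.05 and 0.06 with median-ratio factors, and the members then stood at -1.97 and -1.95, or -1.42 and -1.52. A total of 50 of the 80 members were lower in both clone groups, where 999 of the 8603 genes of the table were. Another 18 members were in neither direction in either. Under 10% of the IV-D level stood 18 members in NT-D and 21 in NT-LW, and below the IV-D level by any amount stood 70 in each. The choice by IV-D-8C bears on all of these counts, and only the count lower in both groups has a table count beside it.

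Other RNAs also differed between clones and IV-D at the 8-cell stage. Over all genes tested 10.8% were higher in NT-D-8C and 16.3% in NT-LW-8C. Of 12 oocyte transcripts 9 are in the table, and 6 of 8 tested were higher at the 8-cell stage in each clone group. Their summed FPKM was 25.5 in IV-D-8C, 205 in NT-D-8C and 266 in NT-LW-8C, and BMP15, an oocyte growth factor, stood at 2.02, 48.4 and 56.8. Of 12 fibroblast markers 6 are in the table, and 2 of 4 tested were higher in NT-D-8C and 3 of 4 in NT-LW-8C, with sums of 3.68, 28.1 and 29.2. S100A4, a calcium-binding protein of fibroblasts, was listed at 0 in IV-D-8C and at 23 and 18.7 in the clones. In the morulae the oocyte sum stood at 9.34 in IV-D, 239 in NT-D and 33.0 in NT-LW. The fibroblast sum stood at 2.81, 7.04 and 9.13 there. The median member was by then at 88.3% of IV-D in NT-D and 87.3% in NT-LW. The part of leftover oocyte or donor RNA in the member values was not tested, and in pooled embryos fewer cells with an RNA and less of it per cell cannot be told apart.

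**Figure D2:**
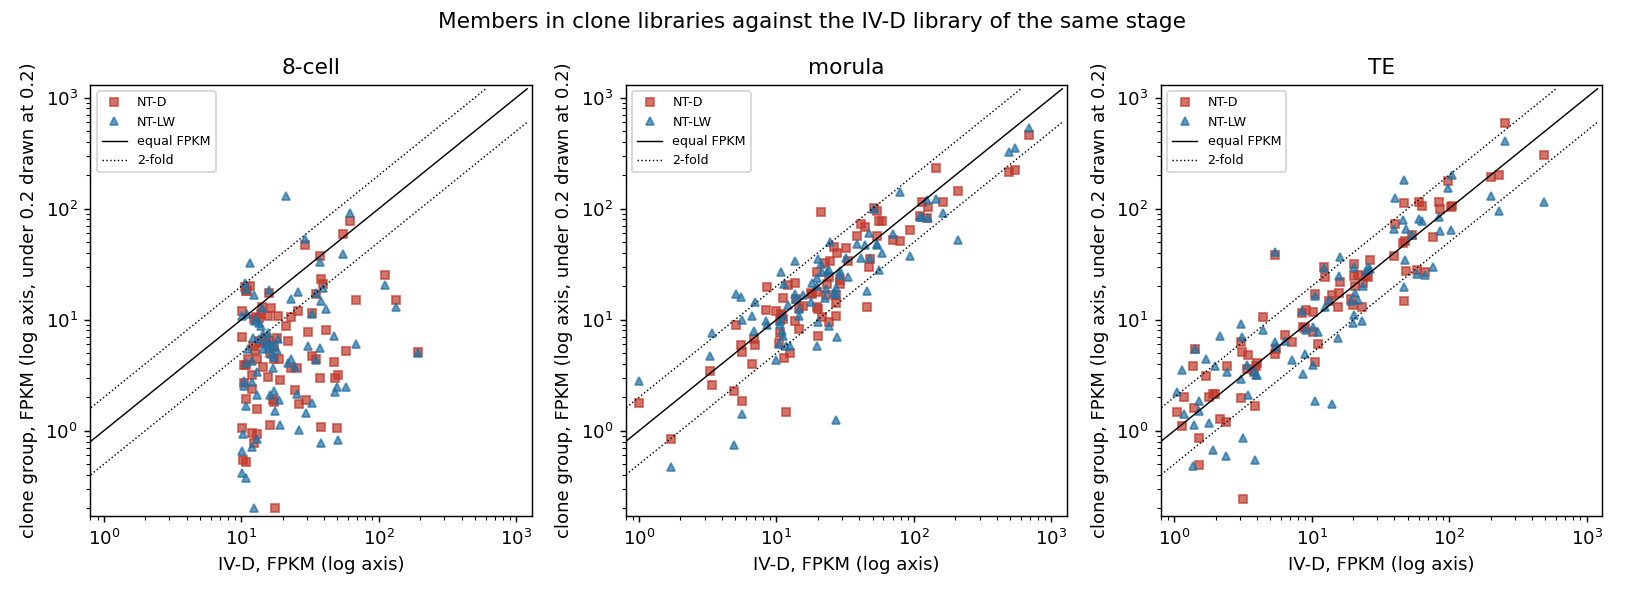
FPKM of each member in clones (vertical, log axis) against FPKM in IV-D embryos (horizontal, log axis) at the 8-cell stage, in the morula and in trophectoderm, with lines of equal level and of a 2-fold difference. Clone values under 0.2 are drawn at 0.2. At the 8-cell stage 70 of 80 points in each clone group lie below equality, and in the morula and TE the points straddle it.

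Members were also grouped by role, in groups drawn up after the values were seen, and no difference between the groups was tested. Of all 80 members, 71.25% were lower in NT-D-8C and 67.5% in NT-LW-8C, against 17.4% and 17.3% of all genes tested. These shares apply to the 8-cell counts of every role, here and further on. The choice by IV-D-8C bears on those counts too, so they describe the members and test nothing. Of 14 membrane and epithelial members, 12 were lower in NT-D-8C and 11 in NT-LW-8C, with median differences of -2.25 and -2.46. Of 11 members in RNA modification and protein processing, 3 and 4 were lower and 0 and 1 higher, with medians of -0.27 and -0.48.

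The V-ATPase members were ATP6V0D2, a subunit of the membrane sector, and ATP6V1C2, a subunit of the cytosolic sector. ATP6V0D2 was under 0.2 in all IV-D libraries before the 8-cell stage and then stood at FPKM 191 in 8C, 491 in MO, 390 in IT and 24.8 in TE. In NT-D the same 4 stages read 5.07, 216, 35.9 and 24.6, and in NT-LW 5.00, 322, 44.3 and 27.4. Both clone 8-cell libraries were thus far below the in vivo one, by 37.8-fold and 38.3-fold, while the 3 TE libraries lay between 24.6 and 27.4. Those levels rest on 8365 fragments in IV-D-8C, 208 in NT-D-8C and 174 in NT-LW-8C.

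ATP6V1C2 stood at FPKM 111, 55.9, 99.3 and 60.7 in the 4 late IV-D libraries, at 25, 78.1, 90.4 and 115 in NT-D, and at 20.7, 28.1, 141 and 80.6 in NT-LW. Only its 8-cell values separated both clone groups from IV-D by more than 4-fold. Among all 14 V-ATPase genes in the table, a list made after the values were seen, 9 were higher and 1 lower in IV-D-8C than in IV-D-4C, where 35% of the table was higher and 28.1% lower. In the 8-cell embryos 5 of the 14 were lower in NT-D and 7 in NT-LW, and 0 were higher. Over all genes tested, 17.4% were lower and 10.8% higher in NT-D-8C, and 17.3% and 16.3% in NT-LW-8C. ATP6V1A, the catalytic subunit, stood at 72.4 in IV-D-8C, 13.2 in NT-D-8C and 13.4 in NT-LW-8C. ATP6V0D1, the widely expressed relative of ATP6V0D2, stood at 11.4, 9.87 and 9.91, and ATP6V1C1, that of ATP6V1C2, at 102, 97.3 and 100.03.

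GJB5 encodes a connexin and lies on chromosome 6, at chr6:90999514-91003301 on the plus strand. It was at most 0.0529 before the 8-cell stage in IV-D and then stood at 57.5 in 8C, 114 in MO, 196 in IT and 47.7 in TE. In NT-D it read 5.23, 114, 35 and 50.8, and in NT-LW 2.45, 84.8, 34.7 and 34.5. The clones were low at the 8-cell stage and in IT and close to IV-D in the morula and, for NT-D, in TE.

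The connexin genes GJA10, GJC1 and GJD2, which are not members, were under FPKM 10 in IV-D-8C, and GJC1 stood at 5.87 there.

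LRP2 encodes megalin, an endocytic receptor of epithelia. It stood at FPKM 32.8 in 8C, 163 in MO, 85.9 in IT and 47.4 in TE of IV-D, at 4.75, 115, 95.7 and 111 in NT-D, and at 1.77, 91.1, 77.1 and 179 in NT-LW. It was lower in clones at the 8-cell stage and higher in clone TE, by 1.22 and 1.90 on the log2 scale. SLC6A8, the creatine transporter, did the same, with 34.9, 93.5, 53.4 and 5.42 in IV-D, 4.44, 64.6, 38.2 and 38.1 in NT-D, and 4.35, 37.8, 37.0 and 40.6 in NT-LW. Its TE difference came from a low value in IV-D-TE, while the clone values hardly changed between IT and TE. SLC6A8 and other members outside the 25 picked by level and difference were named after their values were seen.

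PLET1 encodes a surface protein of trophoblast progenitors. In IV-D it stood at 17.5 in 8C, 27.2 in MO, 26.9 in IT and 45.9 in TE, and in NT-D at 0.0, 16.6, 116 and 49.5, with 0 fragments at the 8-cell stage. In NT-LW it stood at 1.49, 1.24, 97.9 and 79.2. NT-D-8C was thus at least 134-fold lower than IV-D-8C, counted against the level of 3 fragments, and both clone IT libraries were above that of IV-D. In the 4-cell embryos PLET1 was at 3.53 in NT-D and 2.47 in NT-LW against 0.904 in IV-D.

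ANXA4, an annexin that binds membranes, was among the members kept at a high level in TE. It stood at 26.1 in IV-D-8C and 229 in IV-D-TE, at 12.1 and 200.2 in NT-D, and at 17.6 and 95.8 in NT-LW. FRRS1, a ferric reductase whose RefSeq gene overlaps PALMD, read 47.0, 13.7, 7.55 and 20.05 in IV-D from 8C to TE, 4.12, 9.77, 15.6 and 13.6 in NT-D, and 7.13, 17.03, 4.74 and 9.41 in NT-LW. Its in vivo peak at the 8-cell stage was thus missing in both clone groups. TSPAN6, a tetraspanin, stood at 37.6 in IV-D-8C, 37.8 in NT-D-8C and 33.2 in NT-LW-8C, with no such gap.

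Other membrane members, with values in IV-D-8C, NT-D-8C and NT-LW-8C in that order, ranged from a large gap to none past the limit. AP1M2, an epithelial subunit of a clathrin adaptor, stood at 19.3, 2.85 and 1.12, and its TE values of 23.8, 21.4 and 20.1 were close together. PLS1 stood at 32.5, 11.6 and 11.3 and was lower in clone TE as well, at 4.18 and 1.85 against 10.5. ALCAM, an adhesion molecule, stood at 13.5, 10.3 and 9.36.

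**Figure D3:**
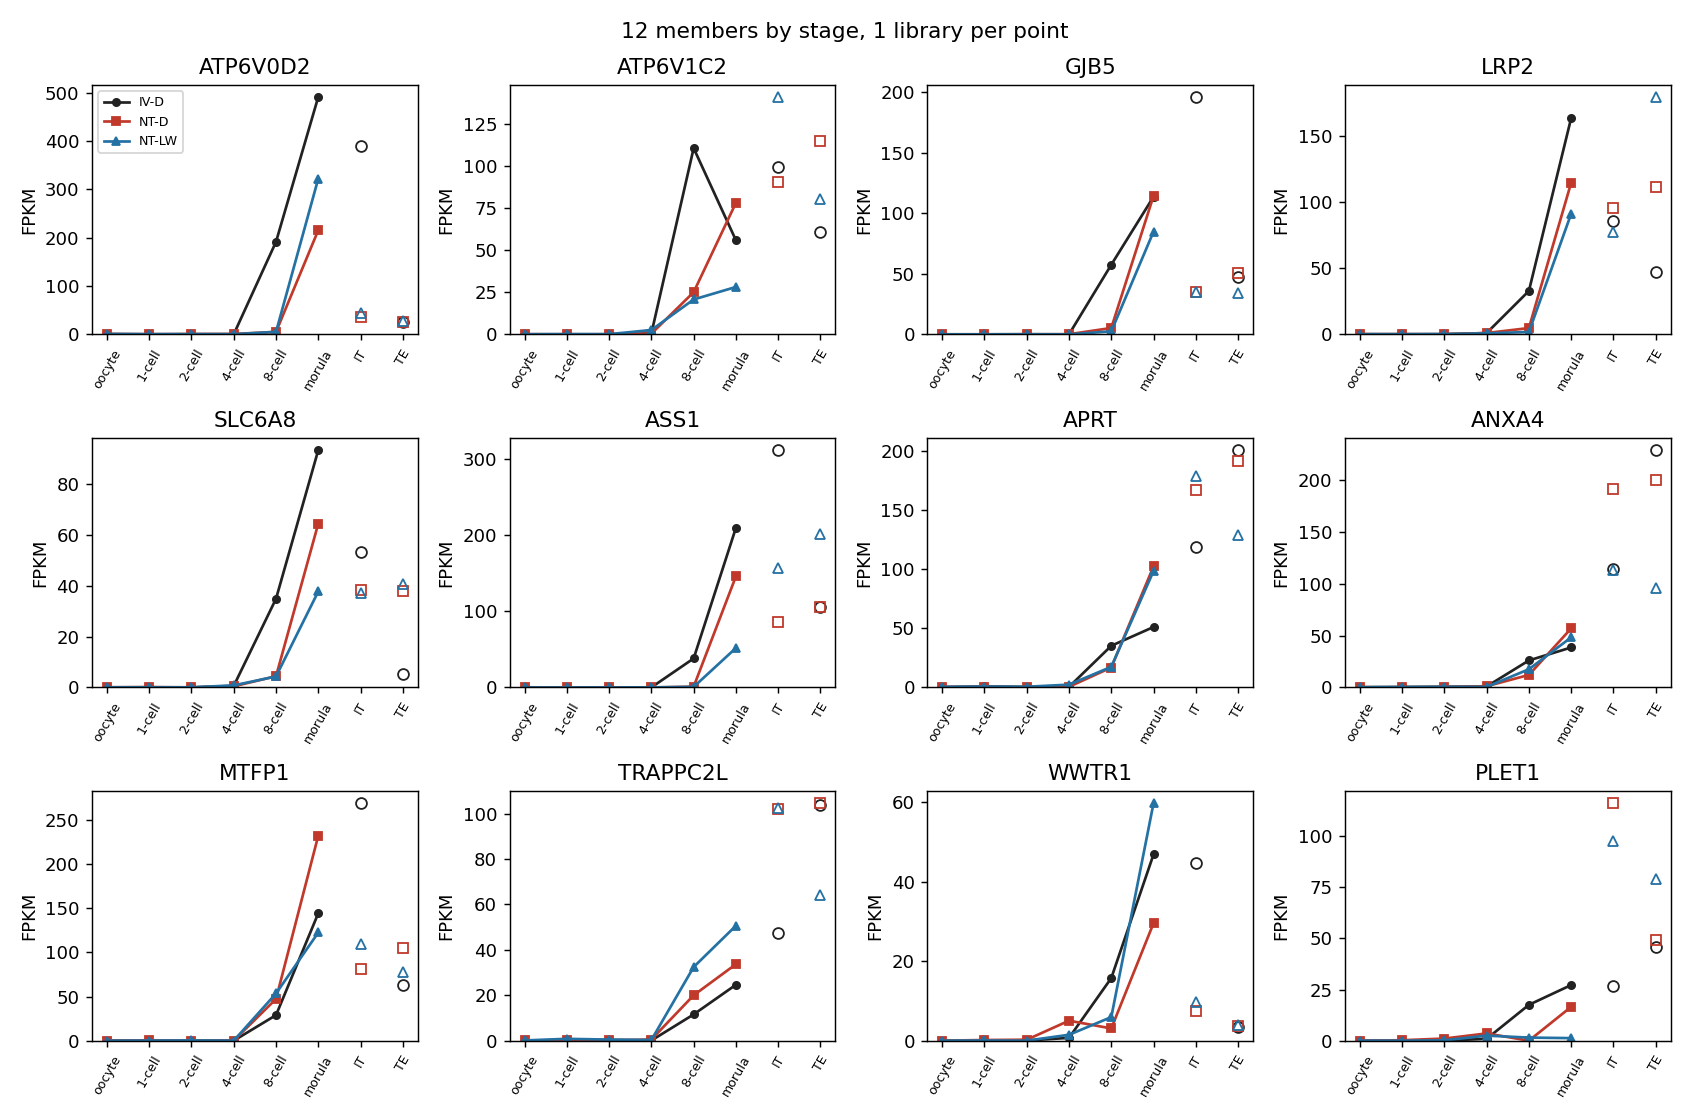
FPKM (vertical, linear axis from 0, scaled for each member) for 12 members by stage in the 3 groups, with lines from oocyte to morula and open symbols for IT and TE. ATP6V0D2 at the 8-cell stage reads FPKM 191 in IV-D and 5.07 and 5.00 in the clones, and TRAPPC2L reads 11.6, 19.99 and 32.4.

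Of 10 mitochondrial members, 7 were lower at the 8-cell stage in each clone group, with medians of -1.26 and -1.60. GLDC, the decarboxylase of the glycine cleavage system, stood at 22.0, 6.37 and 4.09 in the 8-cell libraries of IV-D, NT-D and NT-LW and at 84.5, 115 and 83.8 in TE. IDH3G, a subunit of the isocitrate dehydrogenase of the citric acid cycle, stood at 13.1, 0.931 and 0.835 at the 8-cell stage and was still lower in both clone morulae, at 9.55 and 8.81 against 24.3. MTFP1, which acts in fission of mitochondria, went the other way at the 8-cell stage, at 29.0, 47.3 and 53.5, a difference below the limit in each group. Its model is 432 bases long.

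Among other mitochondrial members, COQ4, ATP5F1D and ACADVL were lower in both clone groups at the 8-cell stage, with values again given for IV-D, NT-D and NT-LW. COQ4, of coenzyme Q synthesis, whose gene overlaps TRUB2, stood at 18.2, 6.82 and 5.32, and ATP5F1D, an ATP synthase subunit, at 15.1, 6.90 and 6.44. ACADVL, which oxidizes very long-chain fatty acids, stood at 11.9, 0.953 and 0.707, and its gene overlaps others. In TE none of the 3 differed from IV-D past the limit, at 20.6, 20.2 and 17.6 for COQ4, 26.6, 34.6 and 28.7 for ATP5F1D, and 3.05, 1.99 and 2.95 for ACADVL. SFXN1, a serine carrier of mitochondria, stood at 12.3, 5.84 and 6.79 at the 8-cell stage, a difference within the limit.

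Among 12 other metabolic enzymes, 9 were lower in each clone group, with medians of -1.29 and -1.69. ASS1, the argininosuccinate synthase of arginine synthesis, stood at 38.1 in IV-D-8C, 1.07 in NT-D-8C and 0.770 in NT-LW-8C, or 35.5-fold and 49.4-fold lower in clones. It then read 209, 146 and 51.8 in the morulae of IV-D, NT-D and NT-LW and 106, 105 and 202 in TE. APRT, which salvages adenine, stood at 35.2, 16.9 and 17.4 at the 8-cell stage and at 201, 191 and 129 in TE. APRT and TRAPPC2L lie 21019 bases apart on chromosome 6, at chr6:890272-893278 and chr6:865498-869253, with 0 genes of the table between them.

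ELOVL7, an elongase of long-chain fatty acids, was high in IV-D-8C alone of the 8-cell libraries, at 37.1 against 2.996 and 5.62, and stood at 1.40, 1.59 and 1.12 in TE. PHYH, which starts the breakdown of branched fatty acids in peroxisomes, stood at 17, 1.89 and 3.68 at the 8-cell stage and at 58.7, 27.8 and 25.6 in TE. HMOX1, heme oxygenase, stood at 23.2, 3.69 and 4.45 at the 8-cell stage and at 46.7, 14.9 and 19.7 in TE, lower in clones at both. NCEH1, a hydrolase of cholesteryl esters, stood at 38.1, 23.5 and 14.9 at the 8-cell stage and at 7.22, 6.33 and 4.34 in TE.

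ACSL6, which activates long-chain fatty acids, was low in clones at the 8-cell stage, at 6.41 and 5.60 against 16, and stood at 40.3 in IV-D-TE, 72.9 in NT-D-TE and 124 in NT-LW-TE. DNPEP, an aspartyl aminopeptidase whose gene overlaps MIR4334, stood at 13.1, 4.40 and 3.38 at the 8-cell stage. NUDT12, which splits NADH, stood at 11, 18.1 and 11.3.

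Among the 11 members that act on RNA or in protein processing, of which 3 were lower in NT-D-8C and 4 in NT-LW-8C, THUMPD2, an RNA methyltransferase, stood at 10.1, 11.9 and 10.9, NAA25, a subunit of an N-terminal acetyltransferase, at 12.9, 10.6 and 10.2, and SRPRB, of the receptor for the signal recognition particle, at 14, 12.9 and 12.8. Lower in both clone groups were WDR4, of a tRNA methyltransferase, ALG3, a mannosyltransferase of N-glycan synthesis, and IGF2BP1, which binds mRNA. WDR4 stood at 10.2, 0.545 and 0.929, ALG3 at 25.4, 3.71 and 2.16, and IGF2BP1 at 16.2, 4.99 and 6.20. IGF2BP1 was already at 1.74 in NT-D-4C and 5.15 in NT-LW-4C, against 0.402 in IV-D-4C.

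Of 6 nuclear and signalling members, 5 were lower in NT-D-8C and 4 in NT-LW-8C, with medians of -1.67 and -1.29. WWTR1, also called TAZ, is a coactivator of TEAD factors, and its RefSeq gene overlaps another. It stood at 15.8, 3.07 and 5.93 in the 8-cell libraries, 46.9, 29.6 and 59.8 in the morulae, 44.6, 7.54 and 9.67 in IT, and 3.39, 3.64 and 3.94 in TE. The 3 TE values lay close together, and IT separated IV-D from both clones. FHL3, a LIM domain protein, stood at 12.4 in IV-D-8C and 0.769 in NT-D-8C and had 0 fragments in NT-LW-8C, at least 105-fold lower counted against 3 fragments. PCLAF, which binds the replication clamp PCNA, stood at 61.9, 77.4 and 92.1 at the 8-cell stage. HES1, a repressor in the Notch pathway, stood at 11.9, 3.15 and 4.21 there and at 3.82, 3.40 and 3.43 in TE. WWC2, a regulator of the Hippo pathway, stood at 17.4, 5.70 and 4.62 and was lower in both clone groups.

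Of the 9 remaining members with a symbol, 8 were lower in NT-D-8C and 7 in NT-LW-8C. CPPED1, a phosphatase, stood at 68.0, 14.9 and 6.01 at the 8-cell stage, 123, 83.2 and 118 in the morulae, and 39.7, 37.4 and 65.0 in TE. GSDMA, a gasdermin, stood at 13, 1.58 and 2.09 at the 8-cell stage and at 3.16, 0.244 and 0.862 in TE. Of the members without a symbol, ENSSSCG00000027689 stood at 133, 15.0 and 12.9 at the 8-cell stage and at 256, 594 and 404 in TE. ENSSSCG00000032003 had the highest in vivo TE value of all members, at 492 against 305 in NT-D and 114 in NT-LW, and stood at 29.3, 1.88 and 1.46 at the 8-cell stage.

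In each clone group 10 members stood at or above their in vivo level at the 8-cell stage, not all of them the ones of the other group. TRAPPC2L, a subunit of the TRAPP complex of vesicle transport, stood at 11.6 in IV-D-8C, 19.99 in NT-D-8C and 32.4 in NT-LW-8C and was higher in NT-LW-8C by 1.41 on the log2 scale. SNORD45A, a small nucleolar RNA, stood at 21.1, 8.74 and 131, above its in vivo level in NT-LW-8C alone. Its model is 83 bases long and the values rest on 36, 14 and 178 fragments. ARL6IP5, a membrane protein of the endoplasmic reticulum, stood at 10.8, 18.1 and 19.0, and ADAT2, a tRNA deaminase whose gene overlaps PEX3, at 55.1, 58.8 and 39.3, above its in vivo level in NT-D-8C alone. ADAT2 stood at 3.43, 4.80 and 2.09 in TE.

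In the morula 48 members in NT-D and 47 in NT-LW still stood below their in vivo level, most of them by less than the limit. The median member stood at 88.3% of IV-D in NT-D-MO and 87.3% in NT-LW-MO. In NT-D 10 members were lower and 2 higher, against 3.88% and 18.7% of the table, and in NT-LW 11 were lower and 5 higher, against 4.07% and 11.6%. Median differences of the members were -0.17 and -0.19, beside 0.22 and 0.21 over all genes, and with median-ratio factors they were -0.42 and -0.44 beside -0.05 and -0.03. Of the 50 members lower in both clone groups at the 8-cell stage, 40 in NT-D and 39 in NT-LW were in neither direction in the morula.

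In clones the step from 8-cell embryo to morula thus held much of the increase. At this step 54 members were higher in NT-D and 53 in NT-LW, with 31.6% and 22.4% of the table higher. Their median differences were 1.65 and 1.76, beside 0.45 and 0.19 over all genes. With median-ratio factors they were 1.19 and 1.39, beside 0.03 and -0.11. Higher at the 8-cell stage and higher again in the morula were 20 members in IV-D, 40 in NT-D and 36 in NT-LW. FPKM of at least 10 was first reached at the 8-cell stage by 27 members in NT-D and 23 in NT-LW, in the morula by 40 and 39, in the blastocyst by 4 and 6, and never by 9 and 12. The rule asked for a high value in IV-D-8C, which leaves less room for a further rise in IV-D than in clones. The counts over both steps and those at FPKM 10 thus describe the members and test nothing. No share of the table is given for them. The members lower in NT-D-MO included ATP6V0D2, TMEM19, IDH3G and SMPX, and those lower in NT-LW-MO included ASS1, SLC6A8, PLET1, IDH3G, FHL3, SMPX, WDR4 and TIGAR.

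In the blastocyst, members past the limit in neither direction from IV-D numbered 43 of 79 in IT and 68 of 80 in TE for NT-D, and 51 and 54 for NT-LW, where the counts were close. In IT, 27 of 79 members tested were lower and 9 higher in NT-D, against 15.4% and 9.47% of the table, and 23 were lower and 5 higher in NT-LW, against 13.7% and 8.7%. The median member stood at 72.9% and 64.8% of the IV-D level. Lower in both clone IT libraries were, among others, ATP6V0D2, CPPED1, GJB5, WWTR1, MTFP1, ELOVL7 and FHL3, each of which was also higher in IT than in TE of IV-D. Both contrasts rest on the same IV-D-IT library, so a high value there puts a gene in both. Of the 80 members 33 were lower in TE than in IT of IV-D. The 7 primitive endoderm markers of the table summed to FPKM 106 in IV-D-IT, 47.2 in NT-D-IT and 66.1 in NT-LW-IT. OTX2 stood at 56.0, 9.56 and 25.3 in these libraries and PDGFRA at 11.6, 1.66 and 2.22, while GATA6 stood at 37.7, 33.97 and 37.4 and LAMA1 at 0.0184, 1.40 and 0.171. The 6 inner cell mass markers summed to 86.6, 303 and 375, mostly DPPA5. The part of the amount of inner tissue in the IT pieces was not tested.

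In TE the median member stood at 107% of the IV-D level in NT-D and 99.6% in NT-LW. In NT-D 5 members were lower and 7 higher, against 4.23% and 3.13% of the table, and in NT-LW 16 were lower and 10 higher, against 10.2% and 6.26%. The rule required FPKM of at least 1 in IV-D-TE. That level was reached by 77 members in NT-D-TE, where 73.8% of all genes listed reached it. In NT-LW-TE it was reached by 75 members and by 74.1% of all genes listed. The choice by IV-D-TE bears on both member counts, so they describe the members and test nothing. PLS1 (plastin, an actin bundler), HMOX1, PHYH and GSDMA were lower in both clone TE libraries, besides 1 gene without a symbol, and LRP2, SLC6A8 and SMPX were higher in both. SMPX, a small muscle protein gene on the X chromosome, stood at 12.3, 29.6 and 29.2.

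The members were not a set of trophectoderm genes in the sense of standing higher there. In IV-D only 6 were higher in TE than in IT and 33 were lower, against 9.83% and 18% of the table, with a median difference of -0.53 beside -0.19 over all genes. PHYH led those higher in TE, by 3.51, and was followed by ENSSSCG00000032003 at 2.93, FRRS1 at 1.30 and GSDMA at 1.28. ATP6V0D2 led those higher in IT, by 3.92, and WWTR1 was higher there by 3.38. Of 10 mitochondrial members 6 were lower in TE and 0 higher. Among the trophectoderm markers of the table, 1 of 9 was higher in IV-D-TE than in IV-D-IT and 0 were lower.

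The same contrast in clones was small. In NT-D 1 member, FHL3, was higher in TE and 6 were lower, where 0.385% and 4.32% of the table were, and in NT-LW 1, LRP2, was higher and 4 were lower, where 1.18% and 5.07% were. Clone IT and TE libraries thus differed little for the members and for the table alike.

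**Figure D4:**
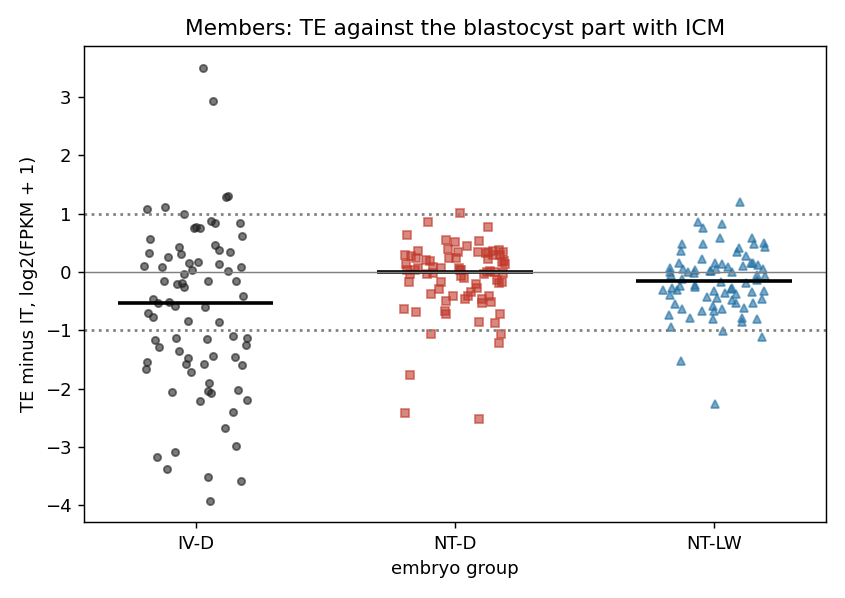
Difference of log2(FPKM + 1), TE minus IT, for each member in IV-D, NT-D and NT-LW, with a bar at the median and dotted lines at 1 and -1. In IV-D 33 members lie below the lower line and 6 above the upper one, and in NT-D and NT-LW 6 and 4 lie below and 1 lies above in each.

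From morula to IT, 6 members were higher and 13 lower in IV-D, where 7.7% and 7.59% of the table were. In NT-D these counts were 10 and 23, with 9.31% and 35.1% of the table, and in NT-LW 10 and 31, with 9.1% and 28.1%. ANXA4, TRAPPC2L, PHYH and PLET1 were among those higher in clone IT than in clone morulae.

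From morula to TE, 33 members were lower and 7 higher in IV-D, where 24.6% and 12% of the table were. In NT-D 26 were lower and 9 higher, with 38.5% and 8.66% of the table, and in NT-LW 30 and 10, with 40.3% and 8.79%. With median-ratio factors the balance in clones turned, to 16 lower and 21 higher in each, and in IV-D it was 28 and 12. From 8-cell embryo to TE the members were more often lower in IV-D, by 34 to 15, and more often higher in clones, by 41 to 12 in NT-D and 36 to 10 in NT-LW. The rule asked for a high value in IV-D-8C and set no level in clones, so this balance describes the choice of members and tests nothing. The table was 32.5% lower and 17.8% higher in IV-D, 33.3% and 20.9% in NT-D, and 37.8% and 17.6% in NT-LW.

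At the 8-cell stage few members differed between the clone groups. Of 75 tested, 5 were higher and 3 lower in NT-D-8C than in NT-LW-8C, where 2.15% and 3.99% of the table were. CPPED1, LRP2, CCDC68 and TIGAR were higher in NT-D, and SNORD45A and PLET1 were lower. TIGAR, which acts on sugar phosphates of glycolysis, stood at 10.1, 6.93 and 0.653 in the 8-cell libraries of IV-D, NT-D and NT-LW and at 14.1, 16.8 and 1.75 in TE. In the morulae 11 members were higher and 10 lower in NT-D, where 14.1% and 7.02% of the table were, and in TE 6 and 3, where 6.84% and 4.6% were.

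Onset in clones lay at several stages. The rule fixes it at the 8-cell stage in IV-D, so a wider spread in clones is built into the choice of members and is no finding. FPKM of 1 was first reached at the 8-cell stage by 43 members in NT-D and 39 in NT-LW. These counts depend on the limit and the scaling, being 27 and 22 with a limit of 0.5 and 25 and 21 with values rescaled to 1 total. Over all 659 genes of the table that first reached it at the 8-cell stage in IV-D, 37.9% and 35.4% did so in NT-D and NT-LW. Already at 1 or more in the recipient oocytes were 7 members, ADAT2, ALCAM, COQ4, ERAL1, NAA25 and UBXN1 among them. The highest of these was ERAL1, a mitochondrial rRNA chaperone, at 2.44. At the 4-cell stage 25 members in NT-D and 26 in NT-LW stood at 1 or more. Higher than in IV-D-4C were 9 and 11 members, against 9.74% and 10.8% of the table, and 0 were lower, against 13.2% and 9.43%, a count that the limit of 1 in IV-D-4C all but fixes. Between the clone groups at this stage 2 members were higher and 4 lower in NT-D, against 0.972% and 3.42% of the table. WWTR1 stood at 5.03 in NT-D-4C, 1.48 in NT-LW-4C and 0.704 in IV-D-4C. Later than the 8-cell stage came, of members with a symbol, ACADVL, FHL3, IDH3G, SMPX and WDR4 in both clone groups, and ASS1 and TIGAR also in NT-LW.

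Of the 59 members with 1 RefSeq position, 7 lie on the X chromosome, 11.9% against 3.78% of the table. They are SLC6A8, IDH3G, DNASE1L1, TSPAN6, ZDHHC9, PHKA1 and SMPX. Of these, 5 were lower at the 8-cell stage in NT-D and 6 in NT-LW, with median differences of -2.72 and -2.47 beside -1.40 and -1.57 for autosomal members. Of all X-linked genes of the table, 33.0% were lower in NT-D-8C and 30.6% in NT-LW-8C. In the morula 2 and 3 of the 7 were lower, and in TE 0 and 0. Lower in the morula were 16.8% of all X-linked genes tested in NT-D and 11.2% in NT-LW. In TE 1.62% and 17.02% of them were lower. With 7 members, these counts are too few to set the members apart from all X-linked genes in the morula or in TE. The clones were male and the in vivo pools could hold both sexes, so sex and nuclear transfer cannot be told apart for these genes.

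None of the 16 tight junction and polarity genes in the table is a member, and they were compared alongside. Of 15 tested in the 8-cell embryos, 9 were lower in NT-D and 7 in NT-LW, and 0 were higher. Over all genes tested, 17.4% were lower and 10.8% higher in NT-D-8C, and 17.3% and 16.3% in NT-LW-8C. In the morula 0 and 2 of 15 were lower, against 3.88% and 4.07% of all genes tested. In TE 0 and 1 of 16 were lower, against 4.23% and 10.2%.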

How the data were processed

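FPKM values were used as the authors deposited them. They had made cDNA by SMART-Seq amplification, mapped the read pairs to Sscrofa11.1 using HISAT2 (v2.0.4), and counted fragments per Ensembl gene using HTSeq (v0.9.1). Strand is not stated, so reads of overlapping genes cannot be assigned (12 of 59 members with a position). The table holds 8603 genes, by its name those called as changed, so shares of the table are not shares of all genes. No column was left unused (0).

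Whole fragments were recovered from the FPKM steps for 8602 genes (99.988%, tolerance 0.01 fragments). The table takes 82.8% to 97.2% of library depth. Scripts ran in Python 3.11.15 (pandas 2.3.3, numpy 2.4.6, scipy 1.17.1, figures with matplotlib 3.10.9) and were tested on simulated data. A gene counted as higher or lower where its log2(FPKM + 1), with a pseudocount of 1, was over 1 apart in 2 libraries, at least one of which held it at FPKM 1 or above. With 1 library per condition no test between conditions was possible. Added replicates and donor cells were not used here.

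The members and the gene lists were chosen with earlier results of these data known. By rule, 25 members were chosen: the 10 highest in IV-D-8C, the 6 lowest and 3 highest differences at the 8-cell stage per clone group, the 6 highest in TE, and the 3 largest TE and IT differences each way. Others were named after their values were seen. Some members are not reported here by name. Positions, promoter windows and overlaps are from RefSeq for Sscrofa11.1. Alternatives were other pseudocounts, limits and scalings, and a test on recovered fragments.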

Additional observations from a re-analysis of the deposited data

Results flagged for a closer look

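For 4 of the named members a step went opposite ways in 2 groups, each past 1 on the log2(FPKM + 1) scale. The differences between groups were not tested, since each value is 1 library. PLET1 was higher in the 8-cell than in the 4-cell embryos of IV-D, by 3.28, and in NT-D the difference was -2.18, from FPKM 3.53 to 0 fragments. Of all genes past the limit at this step in IV-D and NT-D, 2.46% went opposite ways.

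From 8-cell embryo to morula the FRRS1 difference was -1.71 in IV-D, 1.07 in NT-D and 1.15 in NT-LW. SNORD45A differed by -1.21 in IV-D, 1.09 in NT-D and -3.74 in NT-LW at that step, and its 8-cell values rest on 36, 14 and 178 fragments. Opposite ways at this step went 6.75% of genes in IV-D and NT-D, 6.45% in IV-D and NT-LW, and 7.68% in NT-D and NT-LW. FHL3 differed by -1.58 between TE and IT of IV-D and by 1.01 in NT-D, where 13.7% of genes past the limit in both went opposite ways.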

How the results depend on the processing

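Of the alternative values of the counts that answer a comparison, 59 lay within 1.5 times the reported count and 13 did not. Requiring FPKM of at least 5 left 42 members higher in the 8-cell than in the 4-cell embryos of NT-D in place of 64, since fewer genes are tested. Higher in TE than in IT were 2 members in NT-D with a pseudocount of 0.1 and 4 in NT-LW with median-ratio factors, in place of 1 each. Members first at the limit at the 8-cell stage numbered 27 in NT-D and 22 in NT-LW with a limit of 0.5, and 25 and 21 with values rescaled to 1 total, in place of 43 and 39. The cause was not tested. The number of members was 162 with an 8-cell limit of 5, 32 with one of 20, 33 with early stages under 0.5 and 48 with median-ratio factors. Applied to NT-D and NT-LW libraries, an alternative added after the data were seen, the rule gave 46 and 28 genes. Over the alternatives, members lower than in IV-D at the 8-cell stage numbered 49 to 60 in NT-D and 54 to 61 in NT-LW. With 1 library per condition leaving out a library was not possible. No paired analysis was possible because each condition has 1 library.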

Other observations

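The rule can be turned round and applied to the clone libraries, which was done after the data were seen. On the NT-D libraries it gave 46 genes, of which 14 were among the 80, or 30.4% of the former and 17.5% of the latter. At the 8-cell stage 8 of the 46 were lower in IV-D than in NT-D and 14 were higher, with a median difference of 0.17. On the NT-LW libraries it gave 28 genes, of which 12 were among the 80, with 10 lower and 4 higher in IV-D and a median of -0.14. Of the 46 genes, 22 first reached FPKM 1 at the 8-cell stage in IV-D and 23 reached it earlier.

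Chromosome 13 held 10 of the 59 members with a position, 16.9% against 7.33% of the table. The members were shorter than the table, with median lengths of 2476.5 and 3182 bases, and 3 were under 500 bases.

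Of 12 actin and cortical cytoskeleton genes tested at the 8-cell stage in NT-D 5 were lower and 2 higher than in IV-D, and of 11 in NT-LW 2 were lower and 2 higher. Of all genes tested 17.4% were lower and 10.8% higher in NT-D-8C, and 17.3% and 16.3% in NT-LW-8C. Of 6 inner cell mass markers 2 were lower in NT-D-8C and 4 in NT-LW-8C, and 1 was higher in each. None of these genes is among the 80.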
